A study of Mus musculus with 12 samples.

Results

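The genes described here are 40 genes of DNA replication and mitosis, chosen by symbol from the 55471 gene rows of the deposited expression table. The list holds 14 replication genes (helicase loading, replication fork and nucleotide supply), 20 mitotic genes (cyclins A and B, CDK1, mitotic kinases, the anaphase-promoting complex, spindle and kinetochore) and 6 G1 cyclins and transcription factors. Each symbol matched 1 row, and all 40 genes passed the filter on low values that left 18093 genes tested.

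The study sequenced mRNA libraries from left kidneys of C57/BL6 mice aged 8 to 12 weeks, with or without the gene Sprr2f, after clamping of the left ureter (unilateral ureteral obstruction, UUO). The 4 groups were: Sprr2f KO at day 5 of UUO (3 libraries), Sprr2f KO at day 0 (4), WT at day 5 (3) and WT at day 0 (2). Every animal carries the UUO label, day 0 kidneys included, and the labels do not say whether day 0 animals were operated on. The knockout is labelled for the whole animal with no promoter or Cre, and nothing says that libraries of a group came from separate animals, so p-values measure the spread between these libraries.

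A cell that divides first loads the MCM helicase onto replication origins in G1, a step that needs CDC6 and CDT1. Cyclin D and cyclin E kinases then release E2F factors from the RB family, E2F target genes supply the S-phase machinery, and a later wave of genes, driven by FOXM1 and B-MYB with the MuvB complex, supplies mitosis. Most cells of the adult kidney are quiescent, and tubule cells, fibroblasts and infiltrating leukocytes are known to enter the cycle after injury.

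Libraries held 16567256 to 19398882 reads. Values are in scaled CPM, the deposited CPM (read counts relative to library size) divided by a library scaling factor (trimmed mean of M values, TMM), and 1 read was 0.0515 to 0.0604 CPM before scaling. Sprr2f itself had 0, 39 and 76 reads in the day 5 knockout libraries and 482, 447 and 1138 reads in the day 5 WT libraries. At day 0 it had 0 to 5 reads in knockout and 0 to 2 reads in WT libraries, so these libraries give no check of the genotype. The series title speaks of female mice, yet Y-linked transcripts were present and Xist nearly absent in 1 of 3 day 5 knockout, 4 of 4 day 0 knockout, 1 of 3 day 5 WT and 1 of 2 day 0 WT libraries. The comparisons were therefore repeated within libraries of 1 sex-chromosome pattern.

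Obstruction was accompanied by higher levels of most of these genes in both genotypes. Between day 5 and day 0 in knockout kidneys, 34 of the 40 genes were higher, 1 was lower and 5 were not called (limma on log2 of scaled CPM + 0.5, Benjamini-Hochberg adjusted p under 0.05 over all 18093 genes). Of all genes tested, 29.4% were higher and 25.4% lower in that comparison. In WT kidneys 36 of the 40 genes were higher, 2 were lower and 2 were not called, where 24.5% of all genes were higher and 22.6% lower. The median log2 fold change of the 40 genes was 1.30 in knockout kidneys and 1.53 in WT kidneys, and the median over all genes was 0.07 and 0.04 in the same comparisons. A total of 33 genes were higher in both genotypes, and Ccnd1 was the 1 gene lower in both.

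**Figure D1:**
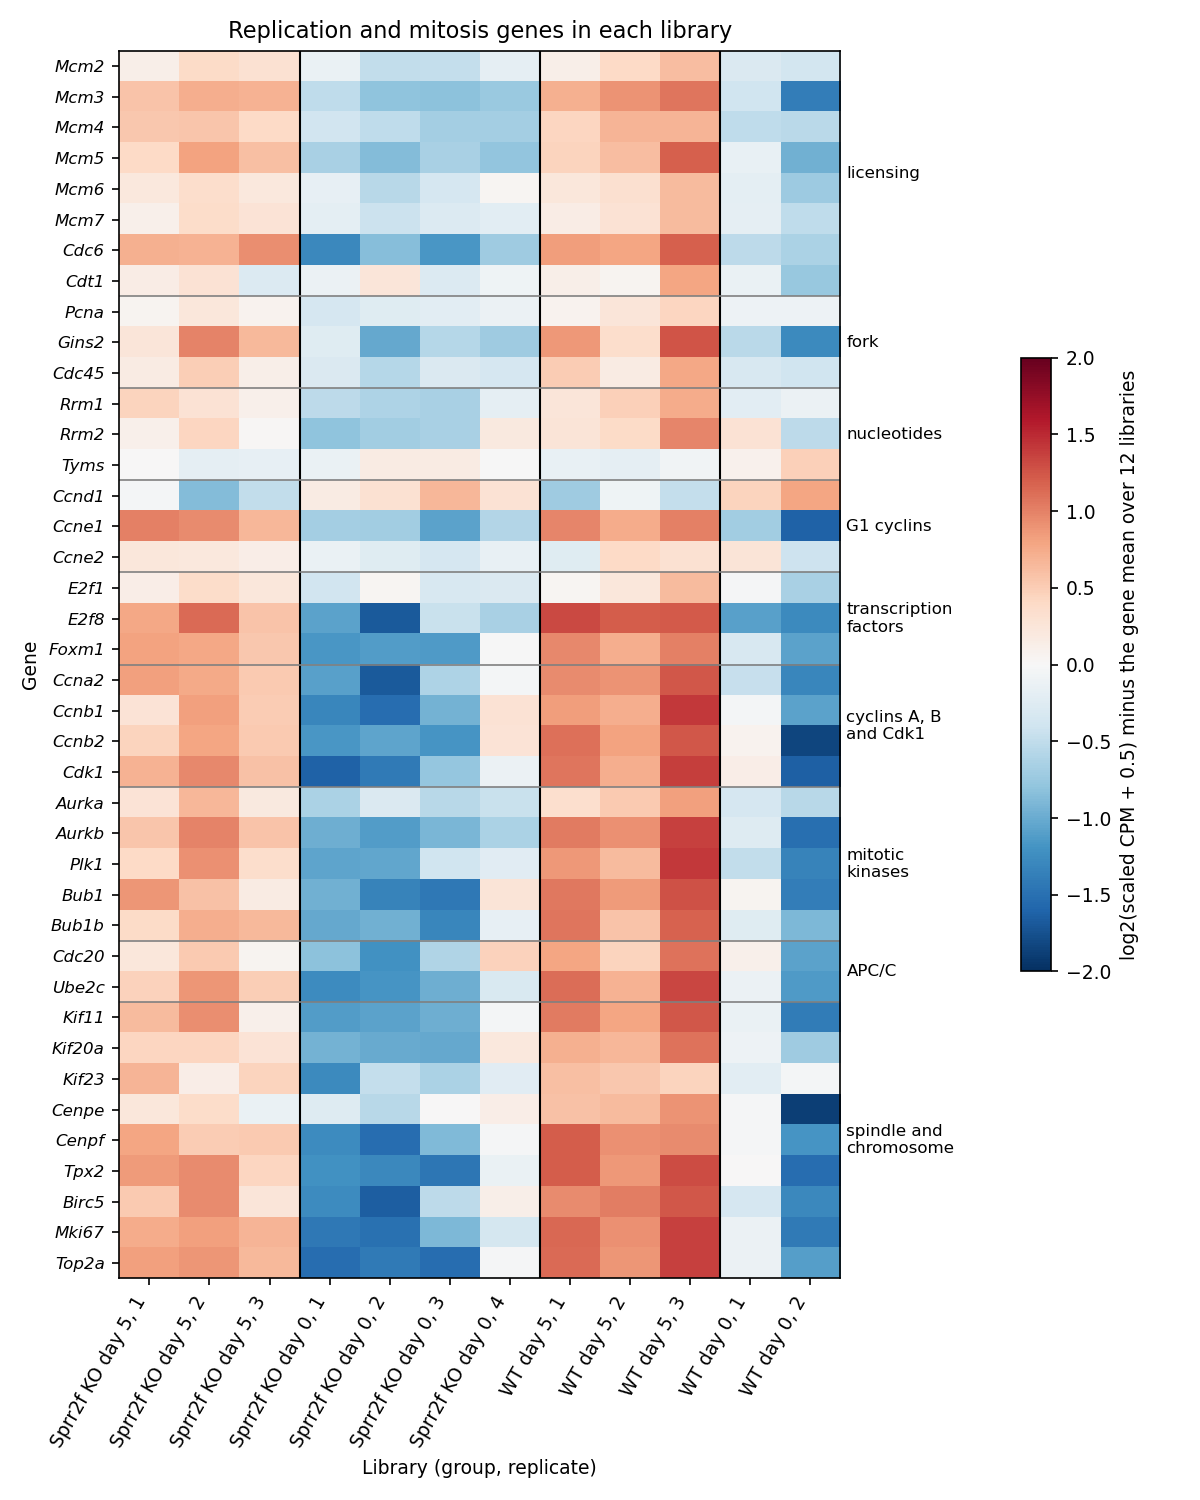
Heat map of the 40 genes (down the page, by role) in the 12 libraries (across). Colour is the log2 difference of a library from the gene's mean over the 12 libraries, on log2 of scaled CPM + 0.5. Day 5 libraries of both genotypes are above the mean for most genes, Ccnd1 and Tyms run the other way, and replicate 4 of the day 0 knockout group and replicate 1 of the day 0 WT group lie above their group for the mitotic genes.

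The comparison holds at the level of single libraries for most genes. In knockout kidneys the lowest day 5 library exceeded the highest day 0 library for 32 genes, the groups overlapped for 7, and all day 5 libraries lay under all day 0 libraries for 1. The same happened for 29.5% (higher) and 25.6% (lower) of all genes tested. In WT kidneys the groups did not overlap for 36 genes with day 5 higher and 2 genes with day 5 lower, against 34.4% and 30.7% of all genes.

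**Figure D2:**
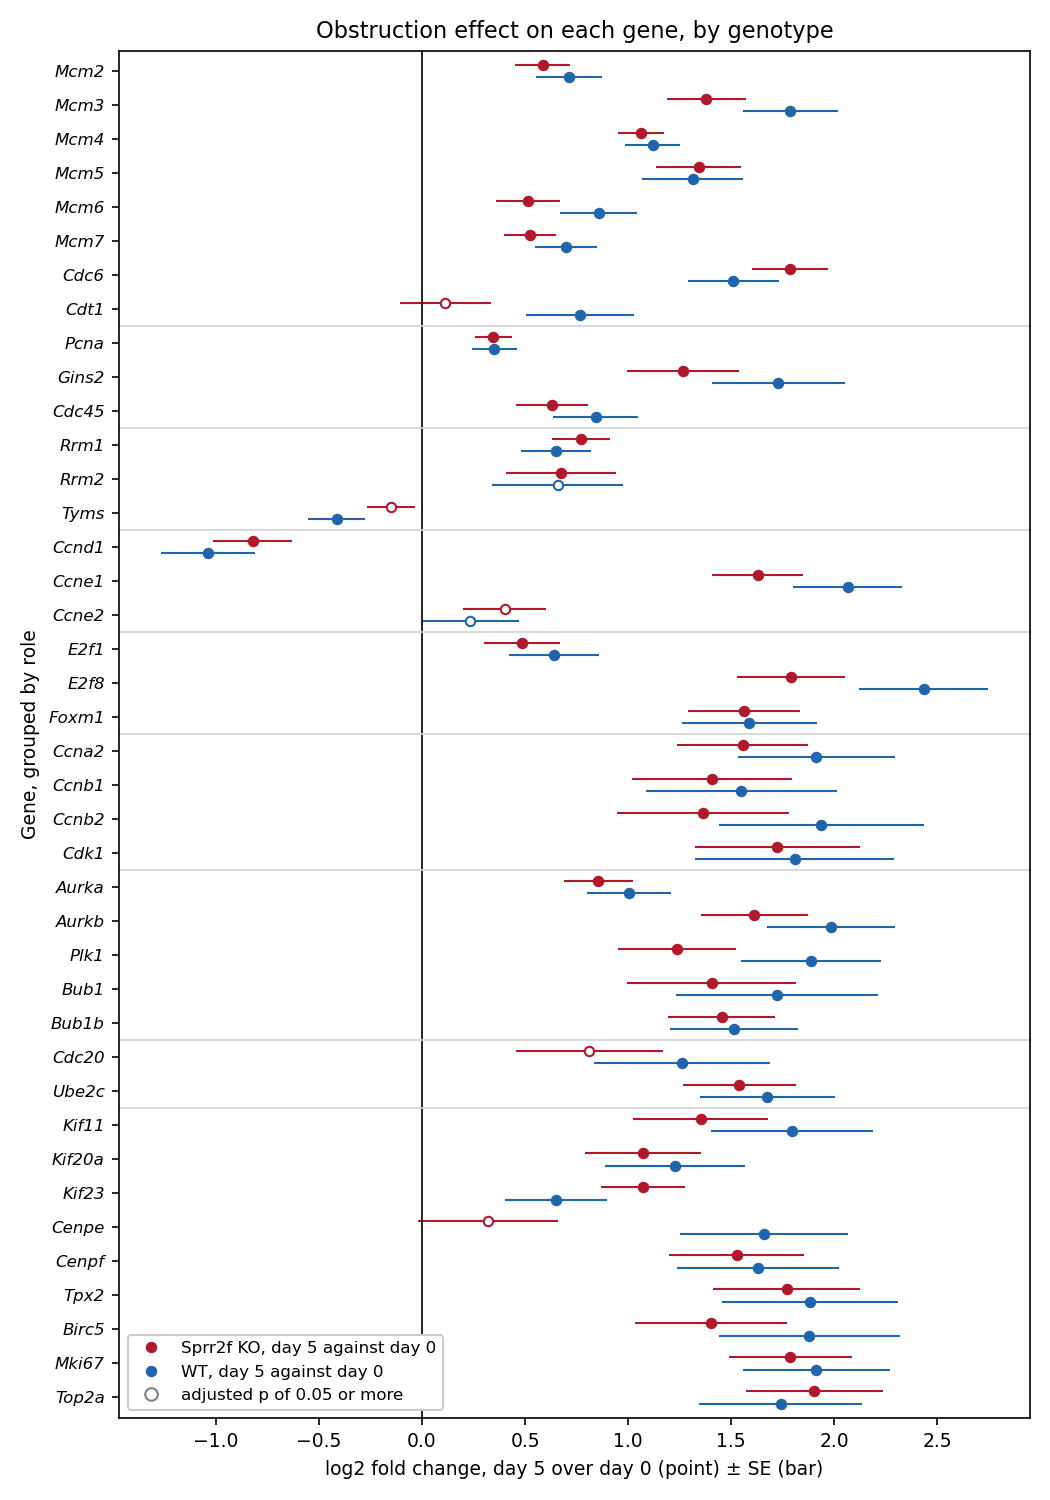
Log2 fold change of day 5 over day 0 for each of the 40 genes, on log2 of scaled CPM + 0.5, in knockout and WT kidneys. Points are limma estimates, bars are ± 1 standard error, and filled points passed the adjusted p threshold of 0.05. Mitotic genes lie mostly between 1 and 2, several replication genes lie under 1, and Ccnd1 lies at -0.82 in knockout and -1.04 in WT kidneys.

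The promoters of these genes differ in short sequence words of the factors named above, and 6 are shown as examples of each pattern. RefSeq (GRCm38.p6) windows of 250 bases before to 50 bases after a start were matched for 31 of the 40 genes. The genes not matched are Aurkb, Ccna2, Ccnd1, Ccne2, Foxm1, Gins2, Kif20a, Mcm4 and Tpx2. Words were searched on both strands: the 4 E2F words TTTCCCGC, TTTGGCGC, TTTCGCGC and TTTGCCGC, the cell cycle homology region (CHR) word TTTGAA, and CCAAT, the word of NF-Y. Capitals mark these words on either strand, so that ATTGG is CCAAT and TTCAAA is TTTGAA read on the other strand. E2F words overlap each other in Mcm5 and Mcm6, and CCAAT overlaps its own reverse in Ube2c.
Mcm6, chr1:128359656-128359955, minus strand: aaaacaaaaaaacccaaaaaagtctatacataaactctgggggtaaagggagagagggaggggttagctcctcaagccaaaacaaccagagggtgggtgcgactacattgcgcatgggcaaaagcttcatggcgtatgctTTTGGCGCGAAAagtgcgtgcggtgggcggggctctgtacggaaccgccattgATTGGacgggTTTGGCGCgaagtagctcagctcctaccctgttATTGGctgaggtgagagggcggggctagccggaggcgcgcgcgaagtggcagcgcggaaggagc
Mcm5, chr8:75109259-75109558, plus strand: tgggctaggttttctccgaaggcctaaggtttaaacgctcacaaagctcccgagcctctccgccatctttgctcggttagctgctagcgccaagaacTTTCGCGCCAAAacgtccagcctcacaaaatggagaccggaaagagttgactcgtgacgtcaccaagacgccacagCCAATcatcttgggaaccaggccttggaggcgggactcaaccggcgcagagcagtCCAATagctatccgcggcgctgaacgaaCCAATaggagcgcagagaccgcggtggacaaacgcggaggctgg
Cdk1, chr10:69352863-69353162, minus strand: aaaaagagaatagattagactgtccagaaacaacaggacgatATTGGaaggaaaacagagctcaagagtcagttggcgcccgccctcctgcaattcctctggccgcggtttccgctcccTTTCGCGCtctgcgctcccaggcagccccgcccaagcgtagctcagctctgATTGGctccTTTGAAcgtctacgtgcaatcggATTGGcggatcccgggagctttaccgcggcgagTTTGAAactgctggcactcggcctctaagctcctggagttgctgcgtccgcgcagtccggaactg
Ccnb2, chr9:70421505-70421804, minus strand: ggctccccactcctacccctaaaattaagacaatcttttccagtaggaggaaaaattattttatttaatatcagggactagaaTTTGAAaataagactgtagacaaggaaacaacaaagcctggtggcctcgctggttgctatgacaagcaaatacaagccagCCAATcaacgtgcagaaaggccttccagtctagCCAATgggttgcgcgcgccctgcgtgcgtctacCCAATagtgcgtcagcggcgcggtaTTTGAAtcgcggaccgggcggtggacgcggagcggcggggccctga
Ube2c, chr2:164769679-164769978, plus strand: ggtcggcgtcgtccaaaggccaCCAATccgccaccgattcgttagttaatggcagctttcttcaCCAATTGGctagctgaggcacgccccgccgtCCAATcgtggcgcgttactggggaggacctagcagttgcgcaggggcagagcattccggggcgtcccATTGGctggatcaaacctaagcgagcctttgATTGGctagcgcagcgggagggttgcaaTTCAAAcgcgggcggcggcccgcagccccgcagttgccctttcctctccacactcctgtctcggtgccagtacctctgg
Tyms, chr5:30073576-30073875, minus strand: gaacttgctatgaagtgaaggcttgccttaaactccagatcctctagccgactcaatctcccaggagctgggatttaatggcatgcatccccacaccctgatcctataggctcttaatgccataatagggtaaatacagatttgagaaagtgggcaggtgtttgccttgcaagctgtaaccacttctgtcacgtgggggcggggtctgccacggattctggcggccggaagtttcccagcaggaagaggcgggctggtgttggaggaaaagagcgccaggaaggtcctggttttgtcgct
Mcm6 and Mcm5 hold E2F and CCAAT words and no CHR, Ccnb2 and Ube2c hold CHR and CCAAT words and no E2F word, Cdk1 holds all 3 kinds, and Tyms holds none of them. An E2F word was found in 6 of 13 promoters of replication genes (46.2%), in 1 of 16 promoters of mitotic genes (6.25%) and in 2.26% of the 32851 promoters of the same length. The 7 genes were Cdc6, Cdt1, Mcm3, Mcm5, Mcm6, Mcm7 and Cdk1. TTTGAA within 50 bases of the start was found in 1 of 13 promoters of replication genes (7.69%), 11 of 16 of mitotic genes (68.8%) and 5.14% of all. CCAAT was found in 76.9%, 93.8% and 37.4% of the same 3 sets. A match describes the letters in these windows and was not tied to binding of a factor.

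Among the licensing genes, which load the replicative helicase onto origins, 7 of 8 were higher in day 5 knockout kidneys and 8 of 8 in day 5 WT kidneys. The median log2 fold change was 0.82 in knockout and 0.99 in WT kidneys. Mcm7, a helicase subunit with the highest level of the role, had 32.4, 39.0 and 36.6 scaled CPM in day 5 and 26.3, 22.3, 24.8 and 26.2 in day 0 knockout libraries. It had 33.4, 37.1 and 47.1 in day 5 and 26.7 and 21.0 in day 0 WT libraries. Day 5 lay above day 0 without overlap in both genotypes, and the log2 fold change was 0.52 ± 0.13 in knockout (SE, adjusted p = 0.00359) and 0.70 ± 0.15 in WT kidneys (adjusted p = 0.00198, limma).

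Mcm3, another subunit of the same helicase ring, had the largest limma log2 fold change of the role in WT kidneys, while in knockout kidneys that of Cdc6 was larger. It had 15.2, 17.0 and 16.6 scaled CPM in day 5 and 6.99, 5.54, 5.51 and 5.83 in day 0 knockout libraries. In WT kidneys it had 16.9, 19.2 and 21.8 at day 5 and 7.51 and 3.57 at day 0. The groups were well separated, and the log2 fold change was 1.38 ± 0.19 in knockout (limma adjusted p = 6.25e-05) and 1.79 ± 0.23 in WT kidneys (adjusted p = 4.11e-05). The other subunits of the ring had smaller changes in WT kidneys: with log2 fold changes in knockout and then WT kidneys, Mcm5 had 1.34 and 1.31, Mcm4 1.06 and 1.12, Mcm6 0.51 and 0.86, and Mcm2 0.59 and 0.71. Mcm6 and Mcm5, whose promoters are printed above, hold 3 and 2 E2F words. Cdc6, which brings the helicase to the origin, was among the lowest in level and had log2 fold changes of 1.79 ± 0.19 and 1.51 ± 0.22. The 0.5 added to each value understates the change of a gene this low, so its order with Mcm3 in WT kidneys is not resolved.

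Cdt1, the partner of CDC6 in helicase loading, was the licensing gene that did not pass in knockout kidneys. It had 9.39, 10.5 and 6.92 scaled CPM in day 5 and 7.73, 10.1, 6.94 and 7.98 in day 0 knockout libraries. Its values were 9.26, 8.77 and 14.9 in day 5 and 7.69 and 4.78 in day 0 WT libraries. The knockout groups overlapped and the WT groups did not, with log2 fold changes of 0.11 ± 0.22 (limma adjusted p = 0.688) and 0.77 ± 0.26 (adjusted p = 0.0300). The difference between the genotypes' changes was -0.65 ± 0.34 and did not pass (adjusted p = 0.689). With sex-chromosome pattern as a term in the limma fit Cdt1 passed in knockout kidneys, at 0.49 ± 0.18 (adjusted p = 0.0363). The WT call was lost without replicate 3 of day 5 (0.54, adjusted p = 0.108) and without replicate 2 of day 0 (0.45, adjusted p = 0.297).

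The 3 replication fork genes were all higher at day 5 in both genotypes. Pcna, the sliding clamp of the fork, had 56.9, 64.6 and 57.7 scaled CPM in day 5 and 43.1, 46.6, 47.2 and 50.8 in day 0 knockout libraries. It had 58.0, 64.9 and 74.2 in day 5 and 51.2 and 51.1 in day 0 WT libraries. Although no day 5 library overlapped day 0 in either genotype, the change was small, at a log2 fold change of 0.35 ± 0.09 in knockout (limma adjusted p = 0.00602) and 0.35 ± 0.11 in WT kidneys (adjusted p = 0.0176). The Pcna value may include reads of a processed copy, since 19.1% of its 50-base sequences also occur in Pcna-ps2.

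Gins2, a subunit of the GINS complex that activates the helicase, had 5.07, 8.87 and 6.87 scaled CPM in day 5 and 3.46, 1.82, 2.66 and 2.38 in day 0 knockout libraries. In WT libraries it had 8.03, 5.49 and 10.7 at day 5 and 2.72 and 1.45 at day 0. All day 5 values exceeded the day 0 values of their genotype, with log2 fold changes of 1.27 ± 0.27 (limma adjusted p = 0.00158) and 1.73 ± 0.32 (adjusted p = 0.000743). Exons of Gse1 on the other strand cover 67.3% of the exon bases of Gins2, and whether the counting used strand is not given in the sources used here. Cdc45, the third fork gene and a partner of GINS, had log2 fold changes of 0.63 ± 0.17 and 0.84 ± 0.21.

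Of the 3 nucleotide supply genes 2 were higher in day 5 knockout kidneys, and in WT kidneys 1 was higher and 1 lower. Rrm1, the large subunit of ribonucleotide reductase, had 30.6, 27.3 and 23.9 scaled CPM in day 5 and 15.4, 14.4, 14.003 and 19.5 in day 0 knockout libraries. It had 26.3, 31.0 and 37.5 in day 5 and 19.1 and 20.4 in day 0 WT libraries. Day 5 was higher without overlap in both, with log2 fold changes of 0.77 ± 0.14 (limma adjusted p = 0.000519) and 0.65 ± 0.17 (adjusted p = 0.00665).

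Rrm2, the small subunit of the same enzyme and the one whose level follows S phase, had 14.2, 18.03 and 13.4 scaled CPM in day 5 and 7.36, 7.97, 8.23 and 15.2 in day 0 knockout libraries. In WT libraries it had 15.9, 17.3 and 26.5 at day 5 and 16.2 and 9.01 at day 0. In each genotype 1 high day 0 library reached into the day 5 range. Its log2 fold change was 0.67 ± 0.27 in knockout kidneys (limma adjusted p = 0.0467, and 0.0690 by edgeR) and 0.66 ± 0.32 in WT kidneys (adjusted p = 0.108). With sex-chromosome pattern in the limma fit the WT value passed, at 0.76 ± 0.24 (adjusted p = 0.0172).

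Like the promoters of Birc5 and Ccne1, which were higher in both genotypes, the Tyms promoter above holds none of the searched words. The window matched for E2f1, also higher in both, holds none either. That window lies inside the annotated E2f1 gene, so the sequence upstream of the gene was not searched. Tyms, the thymidylate synthase, did not rise. It had 18.2, 15.8 and 16.0 scaled CPM in day 5 and 16.3, 20.1, 20.2 and 17.8 in day 0 knockout libraries. Its values were 16.3, 15.8 and 17.1 in day 5 and 19.1 and 25.2 in day 0 WT libraries. The knockout groups overlapped, at a log2 fold change of -0.15 ± 0.12 (limma adjusted p = 0.286), and in WT kidneys Tyms fell by 0.41 ± 0.14 (adjusted p = 0.0264) without overlap. Scaled to library size alone the log2 fold change of Tyms was 0.29 in knockout and -0.001 in WT kidneys, so its direction rests on the scaling.

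Of the G1 cyclins, which start the cycle, Ccnd1 and Ccne1 moved in opposite directions. Ccnd1, cyclin D1, had 91.6, 51.6 and 67.2 scaled CPM in day 5 and 106.4, 116.1, 150.4 and 115.6 in day 0 knockout libraries. It had 57.7, 88.5 and 68.0 in day 5 and 128.9 and 163.1 in day 0 WT libraries. Every day 5 library lay under every day 0 library of its genotype, with log2 fold changes of -0.82 ± 0.19 (limma adjusted p = 0.00289) and -1.04 ± 0.23 (adjusted p = 0.00238). With scaling to library size alone the knockout value was -0.37 (adjusted p = 0.118), and the median of all genes was then higher by 0.38. Per exon length cyclin D1 stood at 14.9 RPKM (scaled CPM per kilobase of exon) in day 5 and 25.9 in day 0 knockout kidneys, where Pcna had 24.9 and 19.5.

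Ccne1, cyclin E1, had 4.06, 3.89 and 3.11 scaled CPM in day 5 and 0.927, 0.911, 0.583 and 1.01 in day 0 knockout libraries. Its values were 3.97, 3.32 and 4.07 in day 5 and 0.908 and 0.242 in day 0 WT libraries. The groups were far apart, with log2 fold changes of 1.63 ± 0.22 (limma adjusted p = 4.95e-05) and 2.07 ± 0.27 (adjusted p = 3.88e-05). Ccne2, the second cyclin E gene, had 3.00, 2.96 and 2.79 scaled CPM in day 5 and 2.23, 2.05, 1.88 and 2.20 in day 0 knockout libraries. In WT libraries it had 2.03, 3.48 and 3.20 at day 5 and 3.09 and 1.75 at day 0. The knockout groups did not overlap and the WT groups did, and neither comparison passed, at 0.40 ± 0.20 (adjusted p = 0.109) and 0.23 ± 0.24 (adjusted p = 0.458). With sex-chromosome pattern in the limma fit the knockout value passed, at 0.58 ± 0.23 (adjusted p = 0.0444).

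The 3 transcription factors were higher at day 5 in both genotypes. E2f1, an activator of S-phase genes, had 9.34, 11.1 and 10.03 scaled CPM in day 5 and 6.37, 8.73, 6.68 and 6.85 in day 0 knockout libraries. It had 8.69, 9.97 and 13.4 in day 5 and 8.29 and 5.20 in day 0 WT libraries. Day 5 lay just above day 0 in both, at log2 fold changes of 0.48 ± 0.18 (limma adjusted p = 0.0407) and 0.64 ± 0.22 (adjusted p = 0.0295). The knockout call was lost without any 1 of 7 libraries, the 3 day 5 and 3 of the 4 day 0 knockout libraries among them.

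E2f8, an atypical E2F that represses the same targets, had the largest change of the 40 genes, in WT kidneys. It had 3.09, 4.09 and 2.60 scaled CPM in day 5 and 0.495, 0.152, 1.04 and 0.833 in day 0 knockout libraries. In WT libraries it had 4.72, 4.33 and 4.38 at day 5 and 0.484 and 0.363 at day 0. No groups overlapped, the log2 fold change was 1.79 ± 0.26 in knockout (limma adjusted p = 9.11e-05) and 2.43 ± 0.31 in WT kidneys (adjusted p = 4.00e-05), and the lowest library rests on 2 reads. Foxm1, the activator of mitotic genes, had log2 fold changes of 1.56 ± 0.27 and 1.59 ± 0.33.

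All 4 genes of the S, G2 and M cyclins with CDK1 were higher at day 5 in both genotypes, with median log2 fold changes of 1.48 in knockout and 1.86 in WT kidneys. Cdk1, the kinase that drives entry into mitosis, had 11.5, 13.8 and 10.5 scaled CPM in day 5 and 1.92, 2.28, 3.83 and 6.31 in day 0 knockout libraries. It had 14.98, 11.7 and 18.7 in day 5 and 7.63 and 1.87 in day 0 WT libraries. The groups did not overlap, the day 0 values spread more widely than the day 5 values on the log2 scale, and the log2 fold changes were 1.72 ± 0.40 (limma adjusted p = 0.00288) and 1.81 ± 0.48 (adjusted p = 0.00769).

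Ccnb2, a cyclin B and partner of CDK1, had 7.80, 10.003 and 8.22 scaled CPM in day 5 and 2.23, 2.43, 2.20 and 6.85 in day 0 knockout libraries. Its values were 12.6, 10.2 and 13.98 in day 5 and 5.87 and 1.21 in day 0 WT libraries. Replicate 4 of the day 0 knockout group stood close under the day 5 values, and the log2 fold changes were 1.36 ± 0.42 (limma adjusted p = 0.0143) and 1.94 ± 0.50 (adjusted p = 0.00621). Ccna2 and Ccnb1, cyclins of S phase and mitosis, had log2 fold changes of 1.56 ± 0.32 and 1.41 ± 0.39 in knockout and 1.91 ± 0.38 and 1.55 ± 0.46 in WT kidneys. Of the 50-base sequences of Ccnb1, 23.4% also occur in other genes, among them Ccnb1-ps.

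The 5 mitotic kinases were all higher at day 5 in both genotypes, with medians of 1.41 in knockout and 1.72 in WT kidneys. Bub1b, a kinase of the spindle checkpoint, had 9.08, 11.6 and 10.96 scaled CPM in day 5 and 3.09, 3.27, 2.46 and 6.01 in day 0 knockout libraries. It had 14.9, 10.4 and 16.2 in day 5 and 5.69 and 3.45 in day 0 WT libraries. The groups did not overlap, at log2 fold changes of 1.45 ± 0.26 (limma adjusted p = 0.000418) and 1.51 ± 0.31 (adjusted p = 0.00140).

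Aurkb, the kinase of the chromosomal passenger complex, had 6.61, 9.17 and 6.69 scaled CPM in day 5 and 1.98, 1.75, 2.07 and 2.62 in day 0 knockout libraries. In WT libraries it had 9.45, 8.61 and 12.0 at day 5 and 3.57 and 1.21 at day 0. Day 0 knockout values lay close together and far under day 5, and the log2 fold changes were 1.61 ± 0.26 (limma adjusted p = 0.00019) and 1.98 ± 0.31 (adjusted p = 0.00019). The other kinases were Aurka, of the spindle poles, at 0.86 ± 0.17 and 1.01 ± 0.20, Plk1, at 1.24 ± 0.28 and 1.89 ± 0.34, and Bub1, at 1.41 ± 0.41 and 1.72 ± 0.49.

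The anaphase-promoting complex, which marks cyclin B and securin for destruction, was covered by its activator Cdc20 and its ubiquitin-conjugating enzyme Ube2c. Cdc20 had 12.5, 15.6 and 11.1 scaled CPM in day 5 and 5.81, 4.33, 6.81 and 14.9 in day 0 knockout libraries. It had 18.7, 14.7 and 23.2 in day 5 and 11.5 and 4.78 in day 0 WT libraries. Replicate 4 of the day 0 knockout group reached into the day 5 range, and Cdc20 did not pass in knockout kidneys (0.81 ± 0.36, limma adjusted p = 0.0716) but did in WT kidneys (1.26 ± 0.43, adjusted p = 0.0278). The difference between both changes was -0.45 ± 0.56 (adjusted p = 0.861). Without that replicate Cdc20 passed in knockout kidneys as well, at 1.12 (limma adjusted p = 0.00650), and with all libraries kept and sex-chromosome pattern in the fit it passed at 1.24 ± 0.36 (limma adjusted p = 0.0106). The WT call was lost without replicate 1 or 3 of day 5 (limma adjusted p = 0.0575 and 0.0801) and without replicate 2 of day 0 (0.66, limma adjusted p = 0.307).

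Ube2c had 11.7, 15.9 and 12.0 scaled CPM in day 5 and 3.21, 3.42, 4.02 and 6.73 in day 0 knockout libraries. Its values were 18.8, 13.95 and 21.99 in day 5 and 7.69 and 3.57 in day 0 WT libraries. Neither genotype's groups overlapped, at log2 fold changes of 1.54 ± 0.27 (limma adjusted p = 0.000419) and 1.68 ± 0.33 (adjusted p = 0.00102).

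Among the 9 spindle, kinetochore and chromosome genes, 8 were higher at day 5 in knockout and 9 in WT kidneys, with medians of 1.40 and 1.74. Mki67, the proliferation antigen Ki-67 that coats mitotic chromosomes, had 38.1, 40.4 and 36.5 scaled CPM in day 5 and 8.10, 7.75, 11.9 and 17.7 in day 0 knockout libraries. It had 50.4, 43.2 and 59.3 in day 5 and 20.8 and 8.16 in day 0 WT libraries. Every day 5 value exceeded every day 0 value of both genotypes, and the log2 fold changes were 1.79 ± 0.30 (limma adjusted p = 0.000255) and 1.91 ± 0.36 (adjusted p = 0.000727).

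Cenpe, the kinesin that links kinetochores to spindle microtubules, was the gene of this role that did not pass in knockout kidneys. It had 6.88, 7.69 and 5.29 scaled CPM in day 5 and 4.82, 3.80, 5.90 and 6.43 in day 0 knockout libraries. In WT libraries it had 8.98, 9.32 and 11.3 at day 5 and 5.75 and 1.21 at day 0. The knockout groups overlapped and the WT groups did not, with log2 fold changes of 0.32 ± 0.34 (limma adjusted p = 0.447) and 1.66 ± 0.41 (adjusted p = 0.00469). The difference between both changes was -1.34 ± 0.53, the largest of the 40, with an unadjusted limma p of 0.0261 and an adjusted p of 0.631. With sex-chromosome pattern in the limma fit Cenpe passed in knockout kidneys, at 0.81 ± 0.31 (adjusted p = 0.0435), and the difference was -0.97 ± 0.43 (adjusted p = 0.666). One day 0 WT library had 1.21 scaled CPM and the other had 5.75, close to the day 0 knockout values.

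The remaining genes of this role were called higher in both genotypes. With knockout and then WT values, Top2a, the topoisomerase that untangles chromosomes, had log2 fold changes of 1.90 ± 0.33 and 1.74 ± 0.40, and Tpx2, a spindle assembly factor, had 1.77 ± 0.36 and 1.88 ± 0.43. Birc5, survivin of the passenger complex, had 1.40 ± 0.37 and 1.88 ± 0.44, and Cenpf, a kinetochore protein, had 1.53 ± 0.33 and 1.63 ± 0.39. The mitotic kinesins ran from Kif11, at 1.35 ± 0.33 and 1.79 ± 0.39, over Kif20a, at 1.07 ± 0.28 and 1.23 ± 0.34, to Kif23, at 1.07 ± 0.21 and 0.65 ± 0.25. Kif23 was thus the mitotic gene with the smallest change in WT kidneys (limma adjusted p = 0.0449). Its WT call was lost in 9 of the 25 alternative fits, those without each day 5 WT library in turn among them.

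**Figure D3:**
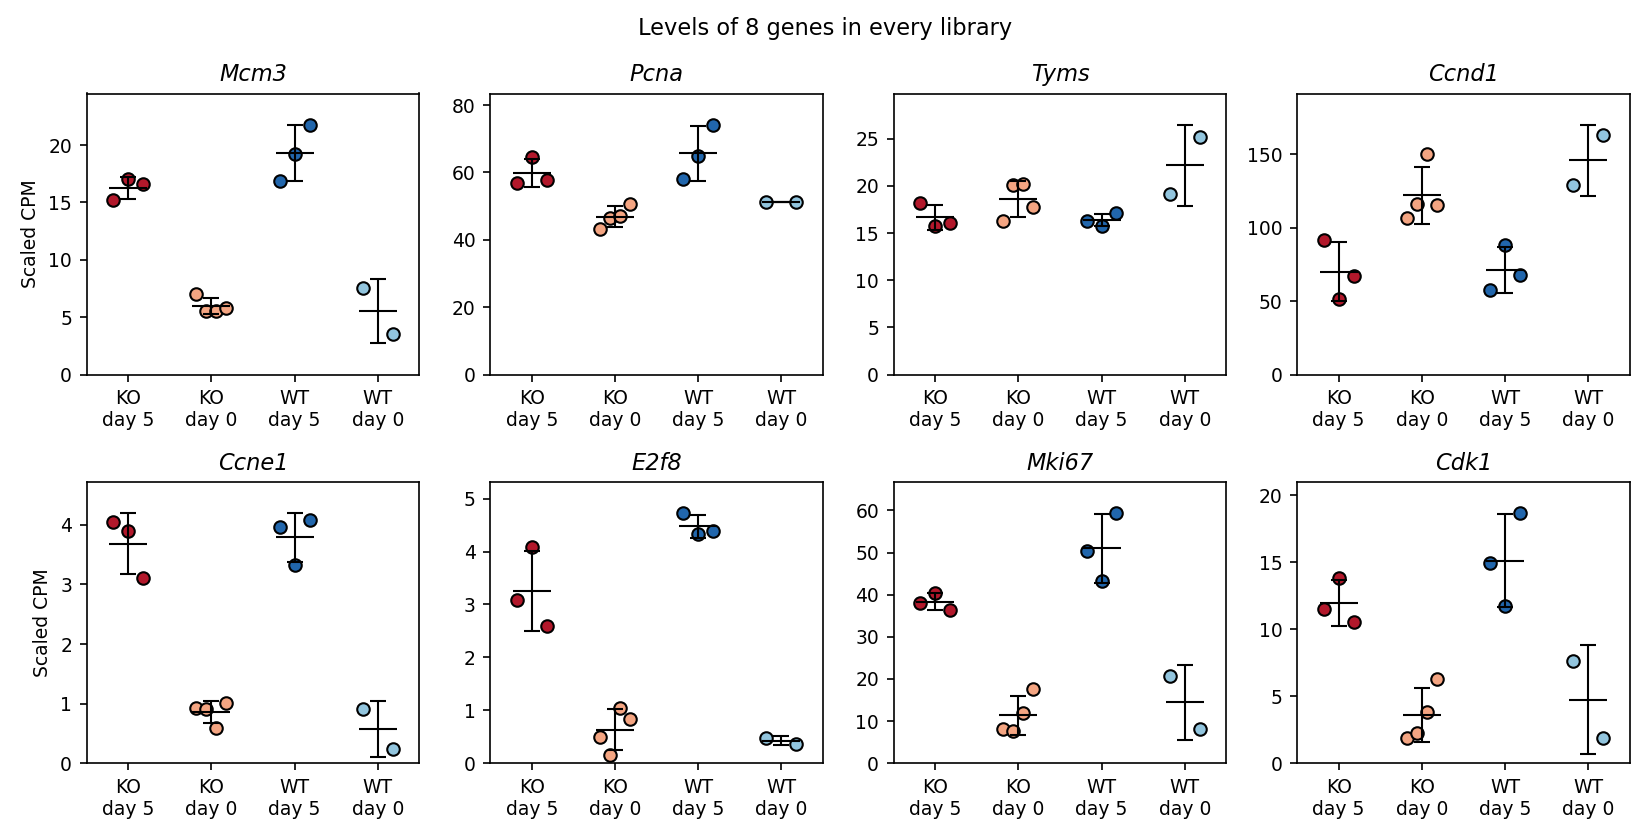
Scaled CPM of 8 genes in the 4 groups. Points are libraries, long horizontal lines are group means and bars are ± 1 SD over the 2 to 4 libraries of a group. Mcm3, Ccne1, E2f8, Mki67 and Cdk1 are higher at day 5, Pcna differs little, Ccnd1 is lower at day 5, and Tyms overlaps between the knockout groups.

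Mitotic genes changed more than replication genes within each genotype, as a description of medians: 1.41 against 0.65 in knockout and 1.73 against 0.80 in WT kidneys. Summed over the 20 mitotic genes, the level was 240.1, 264.1 and 215.8 scaled CPM in day 5 and 64.0, 65.2, 80.8 and 147.6 in day 0 knockout libraries. The same sum was 313.5, 269.6 and 366.6 in day 5 and 141.7 and 67.9 in day 0 WT libraries. Day 5 exceeded day 0 throughout, and 2 of the 6 day 0 libraries, 1 of each genotype, held about the same raised sum. Over the 14 replication genes the sum was 280.1, 313.9 and 280.1 in day 5 and 191.3, 180.7, 185.5 and 211.4 in day 0 knockout libraries. It was 283.5, 310.0 and 386.6 in day 5 and 215.5 and 187.4 in day 0 WT libraries. These sums lay closer together at day 0 than the mitotic sums.

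**Figure D4:**
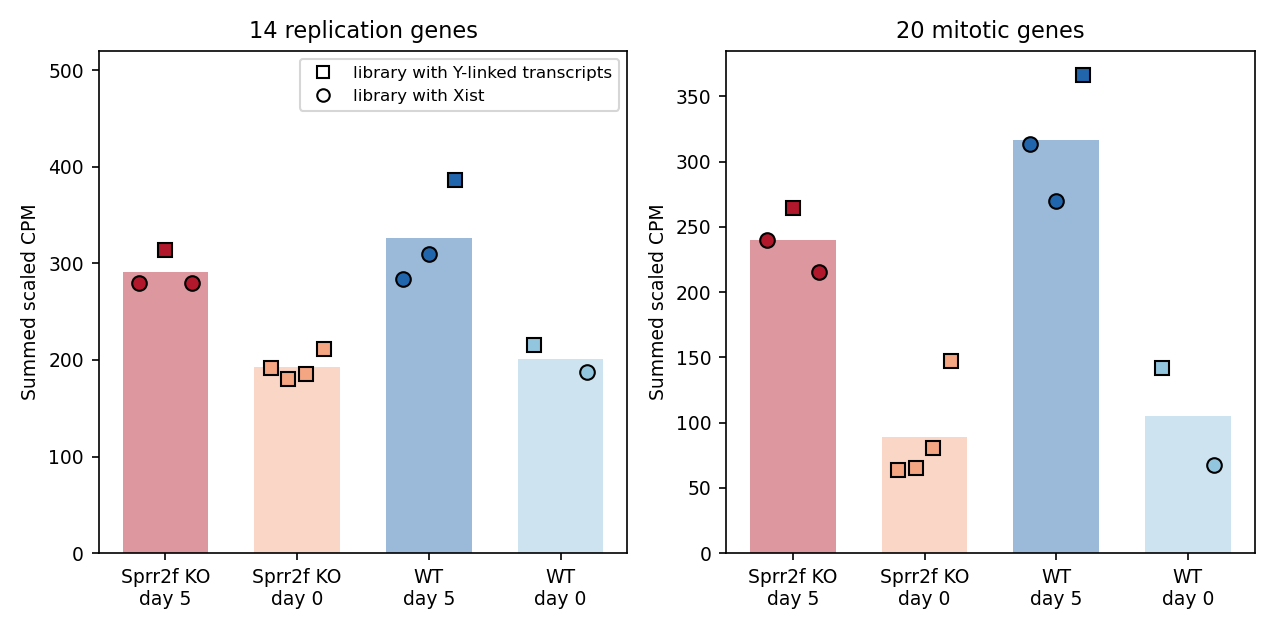
Summed scaled CPM of the 14 replication genes and of the 20 mitotic genes in each library (points, squares for libraries with Y-linked transcripts and circles for those with Xist), with group means (bars). Day 5 libraries hold 215.8 to 366.6 scaled CPM of mitotic transcripts and day 0 libraries 64.0 to 147.6, with replicate 4 of the day 0 knockout group and replicate 1 of the day 0 WT group at the top of the day 0 range.

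The spread among day 0 kidneys was concentrated in the mitotic genes. The median SD of log2 values over the 20 mitotic genes was 0.24 in day 5 and 0.60 in day 0 knockout libraries, and 0.23 in day 5 and 0.78 in day 0 WT libraries. For the 14 replication genes it was 0.13, 0.17, 0.25 and 0.26 in the same groups. Replicate 4 of the day 0 knockout group was the highest of its group for 19 of the 20 mitotic genes, above the mean of the other 3 by a median of 1.12 on the log2 scale, against 0.07 for replication genes. Replicate 1 of the day 0 WT group was above replicate 2 for 19 of 20 mitotic genes, by a median of 1.10, against 0.23 for replication genes. The macrophage marker sum was 201.2 scaled CPM in that knockout library and 209.6 to 270.7 in the other 3, and it was 203.4 in that WT library and 189.1 in the other. The erythroid sum was 94.4 in that knockout library and 192.2 to 244.8 in the other 3, and 209.6 and 216.1 in the WT pair. The injured tubule sum was 1021 against 1055 to 1074 in knockout libraries, and 1337 against 1886 in the WT pair. The part of cell makeup in this spread was not tested.

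Because 1 of only 2 day 0 WT libraries is the high one, the WT comparison depends on the pair. Without replicate 2 of the day 0 WT group the number of genes higher at day 5 in WT kidneys was 22 in place of 36, and 15 calls were lost, among them Birc5, Bub1, Ccnb1, Ccnb2, Cdc20, Cdk1, Cenpe, Cenpf, Kif20a and Tpx2. Without replicate 1 of that group 3 calls were lost, those of Kif23, Pcna and Rrm1, and Rrm2 was gained. In knockout kidneys 32 to 34 genes stayed higher whichever 1 library was left out.

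Other cell types changed in the same comparison. In bulk tissue, more or fewer cells of a type and more or less RNA per cell cannot be told apart. All 10 macrophage markers were higher at day 5 in both genotypes, with sums of 1013 to 1406 scaled CPM in day 5 and 201.2 to 270.7 in day 0 knockout libraries and of 938.1 to 1184 in day 5 and 189.1 to 203.4 in day 0 WT libraries. All 9 fibroblast markers and all 8 markers of injured tubule were higher in both, 8 of 10 T and NK cell markers were, and all 5 tested neutrophil markers were, of 7 listed, with Cxcr2 at 0 in the day 0 knockout and Ly6g at 0 in the day 0 WT group. All 10 proximal tubule markers were lower in both, with sums of 2757 to 5369 in day 5 and 15294 to 17090 in day 0 knockout libraries and of 2346 to 3477 in day 5 and 14242 to 16157 in day 0 WT libraries. Fibroblast sums were 3055 to 4385 scaled CPM in day 5 and 436.9 to 681.5 in day 0 knockout libraries, and 3195 to 4951 in day 5 and 513.6 to 652.9 in day 0 WT libraries. Of 7 urothelium markers 6 were higher in knockout and 7 in WT kidneys, of 8 markers of loop, distal tubule and collecting duct 6 and 5 were lower, and of 8 endothelial markers 0 were higher and 1 lower in each. Of 5 podocyte markers 1 was higher and 1 lower in each genotype, and of 5 tested B cell and plasma cell markers 1 and 2 were higher. The share of reads in mitochondrial genes was 4.07% to 4.34% in day 5 and 8.31% to 9.26% in day 0 knockout libraries, and 3.89% to 4.02% in day 5 and 8.95% to 9.09% in day 0 WT libraries. The part of cell makeup in the higher levels of replication and mitosis genes was not tested.

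Of 6 erythroid markers, 0 were higher at day 5 in knockout and 5 in WT kidneys, and 0 of 6 passed the limma test of the difference between both changes (adjusted p of 0.671 to 0.720, 0 with an unadjusted p under 0.05). Their sums were 178.3 to 278.5 scaled CPM in day 5 and 94.4 to 244.8 in day 0 knockout libraries, and 237.9 to 3911 in day 5 and 209.6 to 216.1 in day 0 WT libraries. The WT library with the highest erythroid sum was replicate 1, while replicate 3 held the highest value of 34 of the 40 genes and had the lowest erythroid sum of its group. The neutrophil sum was 13.5 to 42.5 in day 5 knockout and 50.6 to 78.0 in day 5 WT libraries, with its highest value in the same replicate 3. Its part in the values of that library was not tested.

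Between the genotypes at day 5, none of the 40 genes passed. The limma test called 0 genes higher and 0 lower over the whole table (0%), and edgeR and limma-voom did likewise, while DESeq2 called 49 higher and 2 lower with 0 of the 40 among them. An unadjusted limma p under 0.05 was reached by 0 of the 40 genes and by 5.67% of all genes. The group mean was nevertheless lower in knockout than in WT kidneys for 38 of the 40 genes, where it was lower for 47.3% of all genes, with Ccne2 and Tyms the exceptions. The 40 genes were measured in the same 6 libraries and rise and fall together between them, so they are not 40 independent observations.

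Markers of several cell types leaned one way between the same 6 libraries, with 0 past the adjusted limma threshold. All 10 proximal tubule markers had higher values in knockout kidneys, at a median log2 fold change of 0.57 with 5 at an unadjusted limma p under 0.05. All 7 urothelium markers had lower values in knockout kidneys (median -0.55, 0 at that p), as had all 8 injured tubule markers (median -0.28, 1 at that p). All 5 tested neutrophil and all 6 erythroid markers had lower values at an unadjusted p under 0.05, with medians of -1.28 and -2.26. Urothelium sums were 62.9 to 145.3 scaled CPM in knockout and 71.6 to 259.0 in WT libraries, and injured tubule sums were 14808 to 20231 and 18707 to 22284. Medians were 0.03 for 10 macrophage, -0.05 for 9 fibroblast and -0.11 for 10 T and NK cell markers. The part of these cell types in the lower values of replication and mitosis genes was not tested.

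The median log2 fold change of knockout over WT at day 5 was -0.29 over the 40 genes and 0.005 over all genes. It was -0.42 over the mitotic genes, of which 20 of 20 were negative, and -0.15 over the replication genes, of which 13 of 14 were. For 8 genes every knockout library lay under every WT library, where this held for 4.2% of all genes: E2f8, Ccna2, Ccnb2, Kif20a, Cenpe, Cenpf, Mki67 and Top2a. The reverse held for 0 of the 40 and 5.74% of all genes. Mki67, with 38.1, 40.4 and 36.5 scaled CPM in knockout and 50.4, 43.2 and 59.3 in WT libraries, differed by -0.40 with a 95% interval of -1.09 to 0.30 (limma adjusted p = 0.999). E2f8 averaged 3.26 ± 0.76 scaled CPM in knockout and 4.48 ± 0.21 in WT kidneys (SD, n = 3 each, limma adjusted p = 0.989). Cenpe had the lowest value, at -0.55 with an interval of -1.34 to 0.24, and Ccne2 the highest, at 0.03 with an interval of -0.43 to 0.50. The median stayed negative whichever 1 of the 12 libraries was left out, at -0.15 without replicate 3 and -0.41 without replicate 2 of the day 5 WT group.

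**Figure D5:**
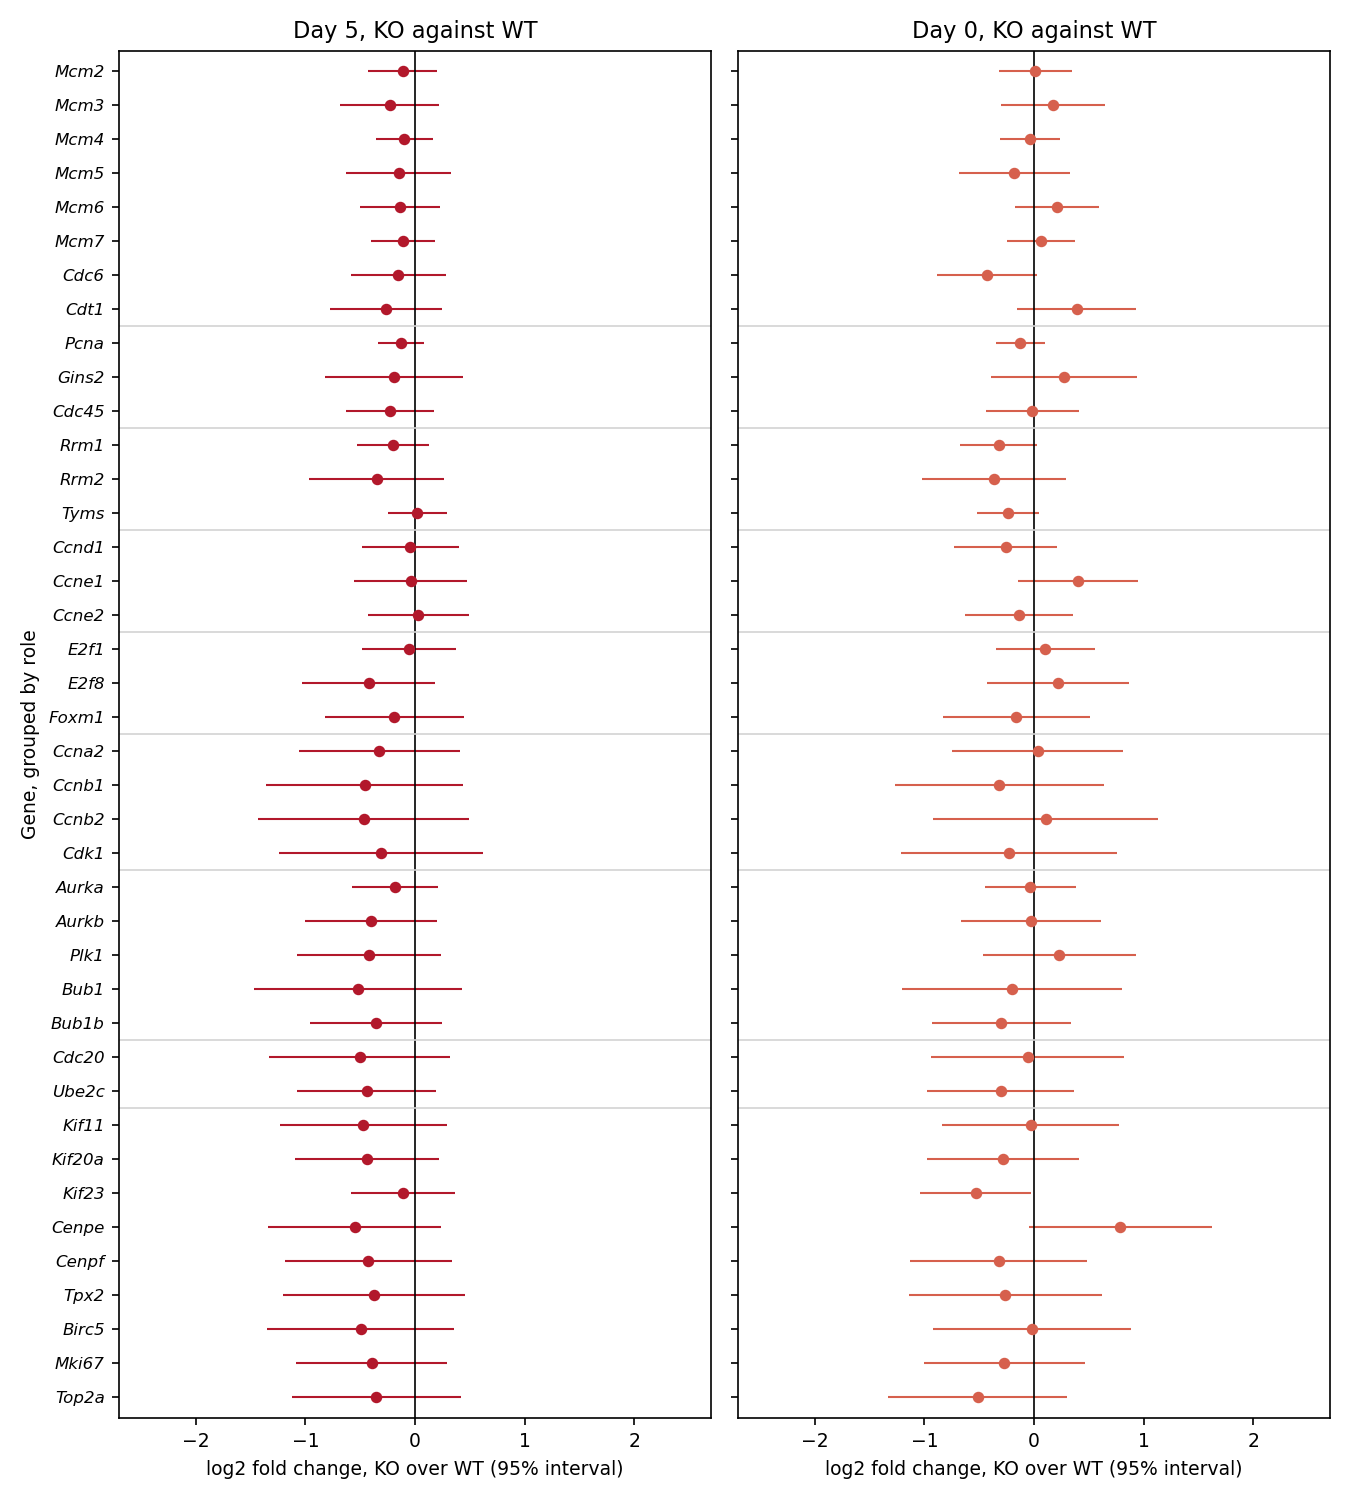
Log2 fold change of knockout over WT at day 5 (left) and day 0 (right) for each of the 40 genes, on log2 of scaled CPM + 0.5. Points are limma estimates and bars 95% intervals. At day 5 all intervals include 0, and 38 of 40 estimates lie under 0. At day 0 the interval of Kif23 lies under 0, the others include 0, and 27 of 40 estimates lie under 0.

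The intervals bound the difference differently between genes, within roles as well. For Pcna the interval ran from -0.34 to 0.08 and for Mcm4 from -0.35 to 0.16, while for the fork gene Gins2 it ran from -0.82 to 0.44. Among mitotic genes it ran from -1.24 to 0.62 for Cdk1 and from -1.44 to 0.50 for Ccnb2, but from -0.58 to 0.21 for Aurka. Among the day 5 knockout libraries, replicate 2 was the highest for 29 of the 40 genes and replicate 3 the lowest for 23. Among the day 5 WT libraries, replicate 3 was the highest for 34 and replicate 2 the lowest for 24. Both of these highest libraries carry Y-linked transcripts.

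At day 0 the genotypes did not differ by test either. The limma test called 0 of the 40 genes, and 0 higher and 3 lower (0.0166%) of all genes, with DESeq2 calling 0 of the 40 and 225 and 145 of all. An unadjusted p under 0.05 was reached by 1 of the 40, Kif23, and by 15% of all genes. Kif23 had 9.89 ± 2.90 scaled CPM in knockout (SD, n = 4) and 14.1 ± 1.23 in WT kidneys (SD, n = 2), at a log2 fold change of -0.53 ± 0.23 (limma adjusted p = 0.309). The median of the 40 genes was -0.09 and the group mean was lower in knockout kidneys for 27 of 40, against 50% of all genes. Its sign rests on the WT pair: the median was 0.25 without replicate 1 and -0.45 without replicate 2 of the day 0 WT group. No gene was higher without overlap, against 12.9% of all genes, and 3 were lower without overlap, Cdc6, Pcna and Kif23, against 12.4%. All 5 podocyte markers (median -0.49, 3 at an unadjusted limma p under 0.05) and all 5 tested neutrophil markers (median -0.38, 1 at that p) had lower values in knockout kidneys at day 0, and their part was not tested.

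The change from day 0 to day 5 was tested for a difference between the genotypes directly. Of the 40 genes 0 passed in limma, edgeR, limma-voom or DESeq2, where limma called 1 of all genes higher (0.00553%) and 0 lower, and DESeq2 35 and 12. An unadjusted p under 0.05 was reached by 1 of the 40, Cenpe, and by 7.61% of all genes. The log2 fold change was larger in WT kidneys for 31 of the 40 genes and the median difference was -0.15, where the WT change rests on 2 day 0 libraries. Without replicate 1 of the day 0 WT group the median was -0.65 and Cenpe passed at -2.30 (adjusted p = 0.0142). Without each other library in turn the highest median was 0.13. With sex-chromosome pattern in the limma fit the median difference was 0.01, with 21 genes positive and 19 negative, so the lean towards WT kidneys was not seen in that fit. All 4 day 0 knockout libraries carry Y-linked transcripts, so that term is estimated from the other groups. Among them is the day 0 WT pair, whose Y-linked library is the high one. The term therefore cannot be fully separated from that library.

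Sex-chromosome pattern was unequal between the groups, and the comparisons were repeated within a pattern as differences without a fit. In libraries with Y-linked transcripts, day 5 minus day 0 was positive for 38 of 40 genes in knockout kidneys (1 against 4 libraries, median 1.45) and for 38 of 40 in WT kidneys (1 against 1, median 1.20). In Xist libraries it was positive for 38 of 40 in WT kidneys (2 against 1, median 1.78), and no day 0 knockout library is of that kind. Knockout minus WT at day 5 was negative for 40 of 40 genes in Y-linked libraries (1 against 1, median -0.38) and for 35 of 40 in Xist libraries (2 against 2, median -0.22). At day 0 it was negative for 38 of 40 in Y-linked libraries (4 against 1, median -0.46), where the single WT library is the high one. The difference between the changes was positive for 20 and negative for 20 within Y-linked libraries. With the pattern as a term in the limma fit, 38 genes were higher and 1 lower at day 5 in knockout and 37 and 2 in WT kidneys, and 0 passed between the genotypes at either day. In that fit the median of knockout over WT was -0.29 at both days, with 38 genes negative at day 5 and 35 at day 0. Since every day 0 knockout library has Y-linked transcripts, the term is estimated from the other groups. The knockout calls gained in that fit, those of Cdt1, Cdc20, Ccne2 and Cenpe, carry this limit.

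Genes of the same pathways outside the list were also compared, and the mitotic ones were the most often higher at day 5. Of 44 tested other replication genes, 23 were higher and 4 lower at day 5 in knockout and 22 and 2 in WT kidneys, with 21 higher in both. This is 52.3% higher and 9.09% lower in knockout and 50.0% and 4.55% in WT kidneys, beside 29.4% and 25.4%, and 24.5% and 22.6%, of all genes. The largest increases were those of Uhrf1, which couples replication to DNA methylation, with log2 fold changes of 2.18 ± 0.18 and 2.42 ± 0.22, Clspn, a checkpoint adaptor, with 1.78 ± 0.29 and 2.08 ± 0.35, and Lig1, the ligase of the lagging strand, with 1.49 ± 0.15 and 1.53 ± 0.18. Orc3, an origin recognition subunit, was lower in both at -0.52 ± 0.09 and -0.37 ± 0.11.

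Of 59 other mitotic genes, 49 were higher and 1 lower at day 5 in knockout and 51 and 2 in WT kidneys. The 4 largest were Anln, the anillin of the contractile ring (1.81 ± 0.36 and 2.41 ± 0.43), Kif2c, a kinesin that depolymerises microtubules (1.78 ± 0.29 and 2.30 ± 0.35), Cep55, which acts in abscission (1.68 ± 0.29 and 2.04 ± 0.35), and Ccnf, cyclin F (1.94 ± 0.27 and 1.72 ± 0.32). Pttg1, which encodes securin, was the exception that was lower in both, at -0.56 ± 0.10 and -0.60 ± 0.12, with 42.8 ± 2.51 scaled CPM in day 5 and 63.6 ± 5.87 in day 0 knockout kidneys.

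Of 16 genes of the E2F, RB and MuvB families, 5 were higher and 3 lower at day 5 in knockout and 6 and 3 in WT kidneys. These are 31.2% and 18.8%, and 37.5% and 18.8%, close in knockout kidneys to the shares of all genes given above, and the medians of 0.004 and 0.14 stood beside 0.07 and 0.04 over all genes. E2f7, the partner of E2f8, rose with it (1.56 ± 0.21 and 1.78 ± 0.25), Mybl2, which encodes B-MYB, had 0.93 ± 0.19 and 0.60 ± 0.23, and Tfdp1, the dimer partner of E2F, had 0.57 ± 0.07 and 0.60 ± 0.09. Lin52 of the MuvB core and Rbl2, the pocket protein p130, were lower in both, Lin52 at -0.67 ± 0.14 and -0.91 ± 0.17 and Rbl2 at -0.52 ± 0.09 and -0.59 ± 0.11. Of 10 other G1 cyclins, CDKs and inhibitors, 6 were higher in each genotype and 0 in knockout and 1 in WT kidneys were lower. Beside the fall of Ccnd1, the cyclin D2 gene Ccnd2 was higher (0.83 ± 0.14 and 0.96 ± 0.16), as were its kinases Cdk4 (0.69 ± 0.09 and 0.83 ± 0.10) and Cdk6 (1.10 ± 0.17 and 1.19 ± 0.20). Cdkn1a, the CDK inhibitor p21, had 1.72 ± 0.18 and 0.95 ± 0.22, with 48.9 ± 13.9 scaled CPM in day 5 and 14.3 ± 2.54 in day 0 knockout and 54.3 ± 2.46 in day 5 and 28.1 ± 4.44 in day 0 WT kidneys (SD).

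Levels between genes were compared per exon length only, in RPKM. At day 5 Pcna led with 24.9 in knockout and 27.4 in WT kidneys, with Ccnd1 next at 14.9 and 15.2. In knockout kidneys Mcm7 (8.13), Mcm6 (7.52) and Cdc20 (6.99) followed, and in WT kidneys Cdc20 (10.1), Mcm7 (8.86) and Mcm6 (8.32). Mki67 reached 3.81 and 5.07 and Cdk1 2.42 and 3.07, while Cdc6, at 0.66 and 0.74, and E2f8, at 0.60 and 0.82, were among the lowest. The order at the bottom is not resolved beyond the spread of the libraries, since E2f8 rests on 2 to 100 reads and Cdc6 on 7 to 107. Sequence shared with other genes could move reads into or out of a few members: apart from Ccnb1 and Pcna, 18.1% of the 50-base sequences of Mcm7 and 10.4% of those of Cdc20 occur elsewhere, and 13 of the 40 genes share exon bases with another gene.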

How the data were processed

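The 12 libraries of left kidney RNA were sequenced with 50-base reads. Per the submitters' processing notes, reads were handled with STAR, SAMtools and HTSeq on GRCm38.p6. Versions, annotation release and strand setting are not given in the sources used here. The authors deposited CPM under the name of a count table: all columns have an equal sum. Dividing by the smallest step recovered whole reads (100% of 665652 values within 0.001 of a whole number), 16567256 to 19398882 per library.

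CPM were divided by TMM factors, and log2 of scaled CPM + 0.5 was tested in limma 3.58.1 (R 4.3.3; trended empirical Bayes) over all 12 libraries, with 1 coefficient for each of the 4 groups. A fold change on this scale understates the change of genes with low values. Genes were kept by filterByExpr (minimum count 10, total 15), leaving 18093 with 99.9% of reads, and called at an adjusted p of 0.05. edgeR 4.0.16 and DESeq2 1.42.0 on recovered reads were alternatives, and edgeR's count test called 5350 genes higher and 4482 lower at day 5 in knockout and 4327 and 4130 in WT kidneys.

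The 40 genes, the pathway and marker lists and the tests were chosen with earlier results of these data known. Every gene of the list is named, and values in each library are given, by role, for the gene with the highest mean, the gene with the largest change in either genotype, and each gene lower or not called in either genotype. From the pathway lists, up to 4 genes with the largest change called in both genotypes and all genes lower in both are named. Coordinates, exon lengths and shared 50-base sequences are from GENCODE M21 (GRCm38), and promoters are from RefSeq (GRCm38.p6). The labels give no replicate numbers, so replicates are numbered in accession order. A result on another replication gene is not reported here.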

Additional observations from a re-analysis of the deposited data

Results flagged for a closer look

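In the day 0 knockout group, the only group of 4 libraries, 7 of the 40 genes had 1 library set apart from the other 3 by a gap that exceeds the 95% critical value of Dixon's test, and in each the library was replicate 4, as the highest. Chance flags about 1 group in 20, and the genes share these libraries. Of all 18093 genes tested, 6.04% were set apart in this way by some library and 1.21% by replicate 4 as the highest. Of the 7, 5 are mitotic: Top2a at 17.0, Ccnb2 at 6.85, Tpx2 at 6.67, Kif11 at 5.77 and Kif20a at 4.35 scaled CPM in that library. The other two are Rrm2, at 15.2 scaled CPM, and Foxm1, at 5.71. Without that library 34 of the 40 genes were higher at day 5 in knockout kidneys, as with it, where Cdc20 was gained and E2f1 lost.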

How the results depend on the processing

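No paired analysis was possible because the labels give no replicate numbers. Over the 25 alternatives and 40 genes, 946 of the day 5 against day 0 values in knockout kidneys kept their direction and call, 44 lost the call, 8 gained it and 2 reversed, and in WT kidneys 935, 61, 3 and 1 did. Against a 1.5-fold threshold, 16 genes were higher and 0 lower in knockout and 18 and 0 in WT kidneys (1697 and 1419, and 1712 and 1285, of all genes). With library size alone as scaling, which raised the median of all genes by 0.38 in knockout and 0.37 in WT kidneys and the share of higher calls to 82.3% and 81.1% (53.7% and 52.1% with TMM), 0 genes were lower in knockout and 1 in WT kidneys, the WT median was 1.92, and Tyms had 0.29 in knockout kidneys. In WT kidneys 1 gene was lower with upper-quartile scaling and 1 when only the groups compared were fitted. Leaving out 1 library gave 32 to 34 higher genes in knockout and 22 to 36 higher and 1 to 2 lower genes in WT kidneys, WT medians of 0.99 to 1.90, 0 to 1 higher gene between genotypes at day 0, 0 to 1 lower gene and medians of -0.65 to 0.13 for the difference between the changes, -0.00720 to 0.28 for Cdt1 in knockout kidneys and -0.11 to 0.57 for Ccne2 in WT kidneys. The lowest WT values came without replicate 2 of the day 0 WT group, and both calls of 1 gene, Cenpe, came without replicate 1 of it (1.73 at day 0, adjusted p = 0.00748 by limma). The least stable calls were Rrm2 and E2f1 in knockout kidneys, lost in 14 and 11 alternatives. The cause was not tested. The within-pattern differences were chosen after seeing the data. With 2 to 4 libraries a group and 2 to 2698 reads per gene and library, differences between genotypes smaller than the intervals given could not be detected.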
